A study of Mus musculus with 6 samples.

Results

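The 10 genes described here are the coactivators, nuclear receptors and nuclear factors that set the mitochondrial content of muscle: Ppargc1a, Ppargc1b, Perm1, Esrra, Esrrb, Esrrg, Nrf1, Gabpa, Tfam and Sirt3. They were taken by gene symbol from a table of transcript abundance, where they held 65 of 105129 transcript rows and made up 10 of 33641 gene symbols. All 65 rows were used, 9 of them were at 0 in every library, and each gene was also summed over its isoforms. RNA came from the quadriceps of 6 male littermate mice, aged 4 months and sampled about 4 hours after lights on (ZT4). In 3 mice both copies of the glucocorticoid receptor gene carried a mouse version of the human variant rs6190 (genotype "rs6190 allele +/+"). The other 3 carried the reference allele on both chromosomes ("ref allele +/+", WT). The allele was inherited from heterozygous parents, so it is not limited to muscle fibres. The table holds abundances and no base calls, so the genotype itself was not checked.

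PGC-1alpha (Ppargc1a) and PGC-1beta (Ppargc1b) bind no DNA themselves and work by docking on transcription factors, chiefly the estrogen-related receptors ERRalpha, ERRbeta and ERRgamma (Esrra, Esrrb and Esrrg) and the nuclear respiratory factors NRF1 (Nrf1) and GABP, also called NRF2 (Gabpa encodes its DNA-binding subunit). Those factors switch on nuclear genes for respiration, among them Tfam, whose product packages mitochondrial DNA and starts its transcription. PERM1 (Perm1) is a striated muscle protein induced by PGC-1 and ERR, and SIRT3 (Sirt3) is the main deacetylase of the mitochondrial matrix and itself a PGC-1alpha and ERRalpha target. Glucocorticoid receptor signalling in muscle is known for its effects on fuel use and protein breakdown. The comparison asks whether the transcripts of this regulatory tier differ in muscle with the receptor variant.

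The isoform differences on which several values below turn can be read in sequence. Positions are on GRCm38 (mm10), and transcripts are named as in GENCODE M21. Tfam is transcribed from the minus strand of chromosome 10 (chr10:71225464-71238280). Its isoforms Tfam-201 (ENSMUST00000092430.10, 729 coding nt) and Tfam-202 (ENSMUST00000105432.9, 645 coding nt) differ in their first coding exon, at chr10:71237840-71237940 and chr10:71238235-71238251. Capitals mark the start codon:
Tfam-201 first coding exon: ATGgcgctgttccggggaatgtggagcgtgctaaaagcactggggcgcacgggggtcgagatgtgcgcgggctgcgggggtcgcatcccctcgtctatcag
Tfam-202 first coding exon: ATGgcaggggcctgggg
The remaining coding exons are the same in both. Esrrg lies on the plus strand of chromosome 1 (chr1:187608791-188214885). Esrrg-201 (ENSMUST00000027906.12, 1374 coding nt) starts translation in an exon at chr1:187997997-187998052 that Esrrg-203 (ENSMUST00000110939.7, 1305 coding nt) does not have, again with the start codon in capitals:
Esrrg-201 first coding exon: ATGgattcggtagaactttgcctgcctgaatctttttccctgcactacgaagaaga

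Nrf1 (chr6:30047988-30153458, plus strand) has an alternative last coding exon of 254 nt at chr6:30144581-30144834. It is shown because its sequence is 84.6% identical, over all 254 aligned positions, to a transcript of Ola1, an ATPase gene elsewhere in the genome. Capitals mark the 39 positions that differ from Ola1:
Nrf1-202 last coding exon: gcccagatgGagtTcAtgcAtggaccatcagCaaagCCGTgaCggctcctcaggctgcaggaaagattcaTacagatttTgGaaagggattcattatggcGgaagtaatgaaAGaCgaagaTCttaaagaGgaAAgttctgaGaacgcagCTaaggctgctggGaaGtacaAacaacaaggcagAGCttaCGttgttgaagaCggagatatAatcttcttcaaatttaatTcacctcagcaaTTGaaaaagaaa
The exon is carried by 4 Nrf1 isoforms, among them Nrf1-202 (ENSMUST00000069808.12), the most abundant one in these libraries. No run of 31 bases in it is shared with another gene.

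The promoter windows of 3 of the genes hold the core of the GABP (ETS) binding motif, CCGGAAG. Each window runs from 250 bases before to 50 bases after a start site annotated in RefSeq (GRCm38.p6). Each is shown as 30 bases with the motif in capitals, on the strand of the gene, where CTTCCGG is the motif read from the other strand. The Tfam window lies at chr10:71238073-71238102, the Sirt3 window at chr7:140882376-140882405 and the Gabpa window at chr16:84835020-84835049:
Tfam promoter: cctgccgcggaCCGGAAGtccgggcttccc
Sirt3 promoter: gtgctcgctcaCTTCCGGcaccgcgggcgc
Gabpa promoter: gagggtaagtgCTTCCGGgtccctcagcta
For 2 of these genes the RefSeq start site is not the first start site of GENCODE M21. By GENCODE M21, the Tfam and Gabpa stretches lie inside the gene, downstream of its first start site (chr10:71238280 and chr16:84834925). The Gabpa stretch lies upstream of the start of the more abundant coding isoform Gabpa-201 (chr16:84835124). The Sirt3 stretch lies upstream of its first GENCODE start site (chr7:140882309). Of all 32851 windows of the same length, 8.86% hold CCGGAAG on either strand. The other motifs searched on both strands were TNAAGGTCA for estrogen-related receptors, the palindromic NRF1 site, the glucocorticoid response element, TGACGTCA for CREB and CACGTG for the clock E-box. These letters were in 0 of the 15 windows of the 9 genes that have one, and in 1.28%, 4.6%, 0.475%, 1.79% and 7.15% of all windows in that order. Each window shown holds 1 of the 6 motifs, so no motifs overlap there. The Ppargc1a window covers the upstream of its start sites only, which held little of its TPM.

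Depth was estimated from the spacing of low values, at 14.6 to 20.02 M fragments per library (M, 1000000). WT replicate 3 stood apart from the other 5 libraries: its correlations with them over log2 values of all genes were 0.951 to 0.965, and its 12 fast-fibre marker genes summed to 230661 TPM, against 96718 to 131342 TPM elsewhere. TPM (transcripts per 1000000) is already divided by transcript length, so levels can be compared between genes. Of 11099 genes tested, 85.8% had a log2 fold change above 0 and the median was 0.26, so each gene below is also read against that shift. Fold changes are homozygous minus WT on the log2(TPM + 1) scale, which understates the change of low genes. All 12 fast-fibre markers of the labelled tissue were detected. Heart and brown fat are tissues rich in these regulators. The 4 cardiomyocyte markers summed to 0.427 to 2.20 TPM a library, and of them only Nppb was at 0 in all libraries. The 3 brown adipocyte markers summed to 0.431 to 1.96 TPM. Of these only Ucp1 was at 0 in all libraries, while Cidea was above 0 in each.

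The regulators fell into tiers of abundance that were alike in both genotypes. In homozygous muscle Esrra was the most abundant at 59.8 ± 10.4 TPM (SD, n = 3), followed by Perm1 at 51.6 ± 11.2 TPM, whose spread overlaps it. Tfam came next at 33.1 ± 3.62 TPM and Sirt3 at 15.1 ± 1.20 TPM, each clear of its neighbours. Gabpa at 9.81 ± 2.32 TPM, Nrf1 at 7.98 ± 0.942 TPM, Esrrg at 6.29 ± 2.08 TPM and Ppargc1a at 5.04 ± 0.964 TPM formed a middle tier whose neighbours were not separated beyond their spread. Esrrb at 1.97 ± 0.952 TPM and Ppargc1b at 1.38 ± 0.441 TPM were lowest. In WT muscle the order was the same apart from Ppargc1a standing above Esrrg and Ppargc1b above Esrrb, pairs that lay within 1 SD of each other. Summed over the 10 genes, the homozygous libraries held 212, 195 and 169 TPM and the WT libraries 163, 154 and 138 TPM.

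**Figure D1:**
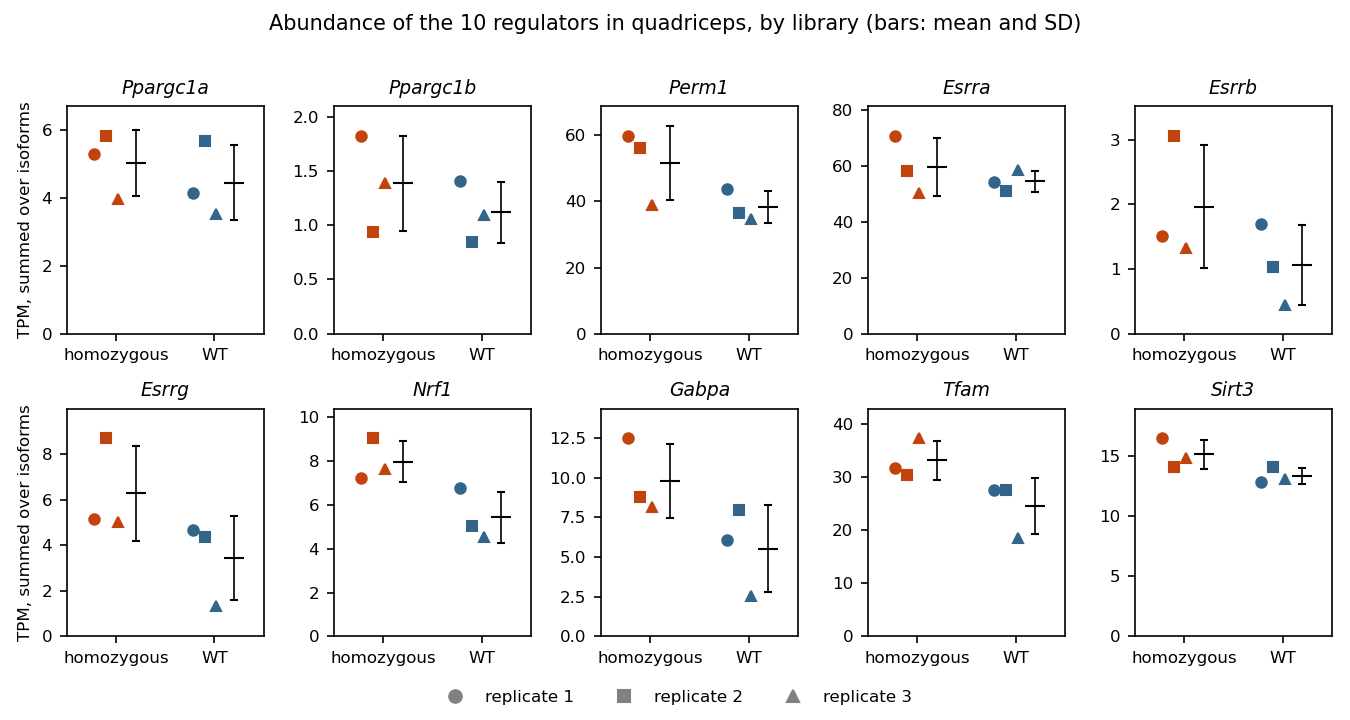
TPM of each of the 10 regulators, summed over isoforms, in the 3 homozygous (orange) and 3 WT (blue) libraries, with marker shape for the replicate number and bars for the mean and SD (n = 3); each panel has its own axis from 0. For Esrrg, Nrf1, Gabpa and Tfam every homozygous library lies above every WT library, and WT replicate 3 is the lowest library in 7 of the 10 panels.

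All 10 genes passed the low-value filter (at least 1 TPM in at least 3 libraries). None of the 10 passed the test of genotype, with limma and Benjamini-Hochberg (BH) adjustment over all 11099 genes, where the called share was 0% (0 of 11099). At an unadjusted p under 0.05, limma gave 3 of the 10, all higher in homozygous muscle: Nrf1, Gabpa and Tfam. Over all genes 23.7% were higher and 0.55% lower by that measure. The homozygous libraries lay wholly above the WT libraries for 4 of the 10, Esrrg, Nrf1, Gabpa and Tfam, where 34.7% of all genes did so and 0.73% lay wholly below. The share of the 10 with groups apart was therefore close to that of the whole table. Their median log2 fold change was 0.42, or 0.15 above the median of all genes. Relative to that all-gene median, Ppargc1a was at -0.11, Ppargc1b at -0.10, Esrra at -0.15 and Sirt3 at -0.095. On the same scale Perm1 was at 0.14, Tfam at 0.17, Nrf1 at 0.22, Esrrb at 0.26, Esrrg at 0.51 and Gabpa at 0.54. Because p-values rest on 3 littermates a group, they measure the spread between these mice only. In whole muscle, fewer cells of a type and less RNA per cell cannot be told apart.

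The levels of both PGC-1 coactivators overlapped between the genotypes. Ppargc1a (chr5:51454250-51567726, minus strand) stood at 5.30, 5.84 and 3.97 TPM in homozygous replicates 1, 2 and 3, and at 4.17, 5.68 and 3.53 TPM in WT replicates 1, 2 and 3. The groups overlapped, and 1 library of each group was near 6 TPM and 1 below 4 TPM. Its log2 fold change was 0.15 (SE 0.20, limma, BH-adjusted p = 0.624) and stood at -0.11 relative to the all-gene median. Ppargc1b stood at 1.82, 0.941 and 1.39 TPM in homozygous and at 1.41, 0.849 and 1.1 TPM in WT muscle. The groups again overlapped, with replicate 2 lowest in both, and the log2 fold change was 0.16 (SE 0.20, limma, BH-adjusted p = 0.586). Ppargc1b rested on an estimated 36.9 to 83.7 fragments a library, among the lowest of the group. Ppargc1a made up 74.1% to 87.0% of the summed PGC-1alpha and PGC-1beta TPM, and the 2 genotypes differed in that share by less than the spread between libraries (78.2 ± 6.86% homozygous, 79.3 ± 6.66% WT, SD, n = 3).

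Ppargc1a is known for a start site upstream of its usual one, which in other settings yields truncated or exercise-induced forms. Here 91.2% to 100% of its TPM came from transcripts starting at chr5:51553871-51553922, and the start 13.8 kb upstream (chr5:51567704-51567726) held 0, 0.514 and 0 TPM in homozygous and 0.294, 0 and 0.0615 TPM in WT libraries. Most of the proximal signal was the full-length isoform Ppargc1a-203 (ENSMUST00000132734.7, 2391 coding nt), with 4.36, 5.33 and 3.52 TPM against 3.87, 5.68 and 3.47 TPM. A second proximal isoform, Ppargc1a-201 (ENSMUST00000031059.13, 810 coding nt, annotated as a target of nonsense-mediated decay), was at 0.942, 0 and 0.450 TPM in the homozygous mice, while WT replicates 1, 2 and 3 each list it at 0. It was under the isoform filter and was not tested. In place of the full-length coding exon 7 (chr5:51490017-51490090) its reading frame ends in a short stretch at chr5:51490112-51490121:
Ppargc1a-203 coding exon 7: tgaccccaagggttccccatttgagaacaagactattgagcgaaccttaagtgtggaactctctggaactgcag
Ppargc1a-201 last coding stretch: tttgttttta

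Perm1 (chr4:156215868-156221307, plus strand), the muscle regulator downstream of PGC-1 and ERR, has 1 transcript row. Its level was 59.8, 56.2 and 38.8 TPM in homozygous replicates 1, 2 and 3, against 43.7, 36.5 and 34.7 TPM in WT muscle. Homozygous replicates 1 and 2 lay above every WT library, while replicate 3 lay within the WT range, so the groups overlapped. The log2 fold change was 0.40 (SE 0.19, limma, BH-adjusted p = 0.224).

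Among the estrogen-related receptors the abundant and the scarce members showed different values. Esrra (chr19:6910977-6921813, minus strand), the main ERR of most tissues, was at 70.9, 58.1 and 50.2 TPM in homozygous and 54.4, 51.1 and 58.6 TPM in WT libraries. Homozygous replicate 1 alone lay above the WT range, and the log2 fold change was 0.11 (SE 0.15, limma, BH-adjusted p = 0.625). Esrrg, the receptor of oxidative and slow fibres, was at 5.17, 8.69 and 5.01 TPM in homozygous and 4.68, 4.37 and 1.34 TPM in WT libraries. The groups did not overlap, but homozygous replicate 3 and WT replicate 1 were close to each other, and 1 library in each group lay far from the rest. Its log2 fold change of 0.78 (SE 0.36) was at percentile 96.1 of all genes and did not pass the test (limma, BH-adjusted p = 0.222). Counted over protein-coding isoforms alone, Esrrg was at 4.37, 7.08 and 3.44 TPM in homozygous and 3.61, 3.23 and 0.814 TPM in WT libraries. Those sums overlapped between the groups. Esrrb (chr12:86361117-86521628, plus strand), the least abundant receptor, was at 1.52, 3.06 and 1.32 TPM in homozygous and 1.69, 1.03 and 0.450 TPM in WT libraries, with overlapping groups and a difference of 0.53 on the log2 scale (SE 0.29, limma, BH-adjusted p = 0.275). That difference was 0.28 without homozygous replicate 2 and 0.30 without WT replicate 3.

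Esrra supplied most ERR transcripts in every library, from 83.2% in homozygous replicate 2 to 97.04% in WT replicate 3. Those are also the libraries with the highest and the lowest Esrrg share, 12.4% and 2.22%. The Esrrg share of ERR TPM was 9.32 ± 2.91% in homozygous and 5.88 ± 3.17% in WT muscle (SD, n = 3), and the groups overlapped.

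The slow-fibre transcripts had their highest and their lowest library in common with Esrrb and Esrrg. The 9 slow-fibre markers, such as the slow myosin Myh7 and the slow troponin Tnnt1, summed to 1669, 9107 and 1987 TPM in homozygous replicates 1, 2 and 3 and to 1561, 1007 and 205 TPM in their WT littermates. Homozygous replicate 2 was highest and WT replicate 3 lowest in the slow-fibre sum, in Esrrb and in Esrrg, and the same held for Ppargc1a and Nrf1. Over all genes tested, homozygous replicate 2 was the highest library in 31.5% and WT replicate 3 the lowest in 55.8%, so these extremes are common. In the other 4 libraries, whose slow-fibre sums ran from 1007 to 1987 TPM, Esrrg lay between 4.37 and 5.17 TPM. Esrrb lay between 1.03 and 1.69 TPM in those 4, not in the order of the slow-fibre sums. With a slow-fibre score as a covariate, the genotype term was -0.062 for Esrrg, -0.11 for Esrrb and -0.094 for Ppargc1a on the log2 scale, and positive for the other 7 genes. That covariate spends 1 of few degrees of freedom and is itself higher in every homozygous than in every WT library. Whether fibre content plays a part in the genotype values was not tested beyond this fit.

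**Figure D2:**
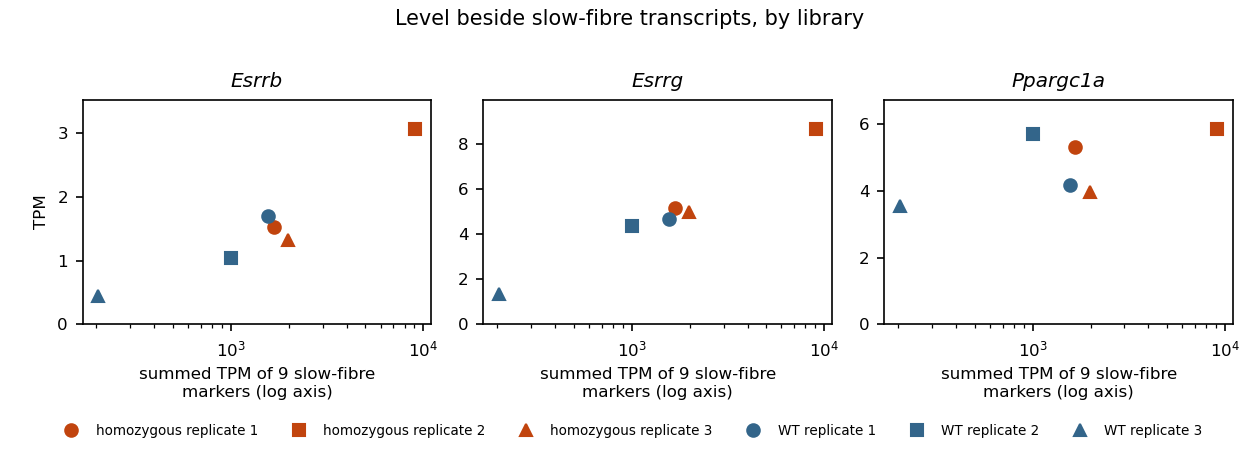
TPM of Esrrb, Esrrg and Ppargc1a in each library (linear axis) against the summed TPM of 9 slow-fibre marker genes (log axis); colour gives the genotype and shape the replicate number. All 3 genes are highest in homozygous replicate 2 (slow-fibre sum 9107 TPM) and lowest in WT replicate 3 (205 TPM), with Ppargc1a spanning 3.53 to 5.84 TPM.

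The 5.01 to 8.69 TPM of Esrrg in homozygous muscle were not made of the same isoforms in each mouse. Transcripts from its distal start (chr1:187608791-187609029) were at 3.06, 1.88 and 1.35 TPM in homozygous and 0.539, 0.786 and 0.209 TPM in WT libraries, so that every homozygous library lay above every WT library. Transcripts from the start 389 kb further into the gene (chr1:187997827-187997868) were at 1.31, 5.20 and 2.09 TPM in homozygous and 3.07, 2.44 and 0.606 TPM in WT libraries, with overlapping groups. The share of Esrrg from the distal start was 59.2%, 21.6% and 26.9% in homozygous and 11.5%, 18.0% and 15.6% in WT libraries. Start sites were grouped when within 500 nt of each other. That cut leaves out Esrrg-205, which starts close by at chr1:187609696 and held 15.5% to 39.2% of Esrrg TPM. If Esrrg-205 is counted with the distal start, the shares overlap between the groups. Esrrg-203, the main distal isoform, was at 3.06, 1.88 and 1.35 TPM against 0.409, 0.786 and 0 TPM. It had the lowest p of all tested isoforms of the 10 genes, at 1.149 on the log2 scale (SE 0.32), and did not pass after adjustment over 21165 isoforms (limma, BH-adjusted p = 0.269). Esrrg-203 reached 1 TPM in homozygous libraries only, so the low-value filter alone set its direction and its separated groups. Esrrg-201, whose extra first coding exon is printed above, was at 0.0439, 2.56 and 2.09 TPM against 3.07, 0.761 and 0.606 TPM, with no difference in the mean (log2 fold change -0.0022, SE 0.58). For a gene at about 5 TPM, the division of fragments among isoforms that share most exons is uncertain, and Esrrg-201 ranged from near 0 in homozygous replicate 1 to 3.07 TPM in WT replicate 1.

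Among the nuclear respiratory factors, Nrf1 and Gabpa were 2 of the 3 genes under an unadjusted p of 0.05. Nrf1 was at 7.25, 9.04 and 7.64 TPM in homozygous and 6.76, 5.04 and 4.55 TPM in WT libraries. The groups did not overlap, and the nearest libraries were replicate 1 of each group. Its log2 fold change was 0.49 (SE 0.18, limma, BH-adjusted p = 0.178), the lowest p of the 10. Gabpa (chr16:84834925-84863779, plus strand) was at 12.5, 8.81 and 8.16 TPM in homozygous and 6.07, 7.95 and 2.57 TPM in WT libraries. The groups did not overlap, with homozygous replicate 3 and WT replicate 2 the nearest libraries and WT replicate 3 far below the rest. The log2 fold change was 0.81 (SE 0.33, limma, BH-adjusted p = 0.197), the largest of the 10 with the pseudocount of 1. With a pseudocount of 0.1, Esrrg had the larger value, 0.98 against 0.93.

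Both factors were also read by isoform. Nrf1-202, with the Ola1-like last exon, was at 2.57, 4.00 and 2.93 TPM in homozygous and 2.51, 1.47 and 1.69 TPM in WT libraries, and Nrf1-210 (ENSMUST00000115211.7, 1509 coding nt) at 1.71, 2.76 and 1.87 TPM against 1.42, 0.957 and 1.52 TPM. Neither had overlapping groups, and neither passed the test (log2 fold changes 0.53 and 0.43, limma, BH-adjusted p = 0.333 and 0.374). Left without the 4 isoforms that carry the Ola1-like exon, Nrf1 was at 3.63, 4.36 and 4.07 TPM in homozygous and 4.16, 2.83 and 2.85 TPM in WT libraries (4.02 ± 0.371 and 3.28 ± 0.764 TPM, SD, n = 3), and the groups overlapped. Ola1 itself was at 24.6 ± 2.47 and 22.9 ± 2.55 TPM. That exon was singled out after its values were seen, and whether reads of Ola1 contribute to it was not tested. For Gabpa, the protein-coding isoforms Gabpa-201 and Gabpa-202 together were at 7.002, 7.16 and 5.63 TPM against 5.43, 5.66 and 2.18 TPM, and these groups overlapped. The short non-coding Gabpa-204 (336 nt) added 3.62, 0 and 1.98 TPM in homozygous and 0.225, 1.6 and 0.180 TPM in WT libraries. Gabpa abuts Atp5j, an ATP synthase subunit gene, and 4.90% of the 31-base stretches of Gabpa-201 are shared, the most with Atp5j.

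Tfam, the packaging factor of mitochondrial DNA, was at 31.7, 30.4 and 37.2 TPM in homozygous and 27.6, 27.5 and 18.5 TPM in WT libraries. The groups did not overlap, with WT replicates 1 and 2 close below the homozygous range and WT replicate 3 lowest. Its log2 fold change was 0.43 (SE 0.18, limma, BH-adjusted p = 0.200). The full-length isoform Tfam-201 did not follow the gene sum: it was at 9.61, 6.94 and 8.22 TPM in homozygous and 9.22, 8.79 and 7.09 TPM in WT libraries, and its log2 fold change was -0.019 (SE 0.19). Tfam-202, with the shorter first coding exon, was at 14.0, 11.7 and 5.86 TPM against 13.0, 11.4 and 0.126 TPM. Low values of Tfam-202 sat in replicate 3 of both groups. The non-coding Tfam-204 (ENSMUST00000145220.1, 596 nt) was at 7.89, 8.4 and 15.9 TPM in homozygous and 5.10, 0.559 and 5.31 TPM in WT libraries, groups that did not overlap (log2 fold change 1.52, SE 0.58, limma, BH-adjusted p = 0.304). Counted over protein-coding isoforms alone, Tfam was at 23.9, 22 and 21.3 TPM in homozygous and 22.5, 27.0 and 13.2 TPM in WT libraries, and the groups overlapped.

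**Figure D3:**
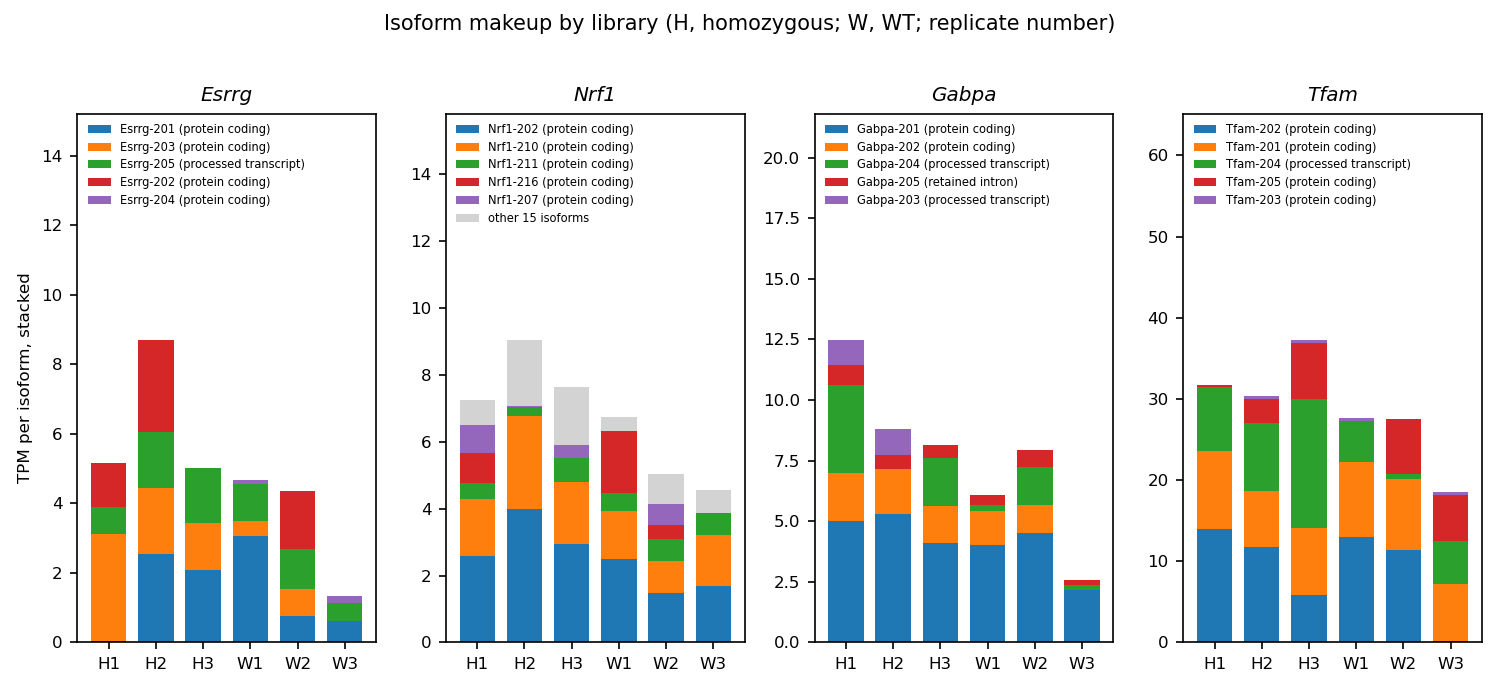
TPM per isoform, stacked, for Esrrg, Nrf1, Gabpa and Tfam in each library (H1 to H3 homozygous, W1 to W3 WT); colours are the most abundant isoforms of each gene with their annotated biotype, and grey is the other 15 Nrf1 isoforms. The Tfam sum is above WT in all homozygous libraries while its full-length isoform Tfam-201 (orange) spans 6.94 to 9.61 TPM in both groups.

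Sirt3 (chr7:140863666-140882309, minus strand), the deacetylase of mitochondrial enzymes, was at 16.5, 14.1 and 14.8 TPM in homozygous and 12.8, 14.1 and 13.0 TPM in WT libraries. Homozygous replicate 2 and WT replicate 2 were level, so the groups overlapped, and the log2 fold change was 0.17 (SE 0.13, limma, BH-adjusted p = 0.404). It had the smallest standard error of the 10. Its main isoform Sirt3-202 (ENSMUST00000106048.9, 771 coding nt) was at 9.33, 6.20 and 6.03 TPM against 6.16, 6.46 and 7.31 TPM. Sirt3-205 (ENSMUST00000147331.8, 774 coding nt) was at 1.6, 2.46 and 2.39 TPM against 0.918, 1.21 and 0.969 TPM, and no WT library reached the homozygous range (log2 fold change 0.62, SE 0.21, limma, BH-adjusted p = 0.287). Sirt3 lies next to Ric8a and Psmd13, and 27.9% of the 31-base stretches of Sirt3-202 and 35.5% of those of Sirt3-201 are shared with such neighbours. The kit keeps strand, but the strand setting of the counting is not given in the sources read, so the split between Sirt3 and its neighbours is uncertain.

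Taken by isoform, 25 of the 65 rows passed the filter, and 0 of them passed the test with limma and BH adjustment over 21165 isoforms, where 0.0425% did. At an unadjusted p under 0.05 there were 4 (Esrrg-203, Tfam-204, Sirt3-205 and Esrra-202, a retained-intron form), all higher in homozygous muscle, against 14.2% of all isoforms. Homozygous libraries lay above all WT libraries in 7 of the 25, where 25.6% of all isoforms did and 2.11% lay wholly below. Those 7 were the same 4 with Gabpa-202, Nrf1-202 and Nrf1-210. Of these, Esrrg-203 and Esrra-202 reached 1 TPM in homozygous libraries only. Their direction and separated groups were therefore set by the filter and show nothing further. The log2 fold change was above 0 in 20 of the 25, against 76.7% of all isoforms. Esrra-202 (ENSMUST00000145192.2) was at 1.39, 1.5 and 1.17 TPM in homozygous and 0.600, 0.450 and 0.527 TPM in WT libraries, against 57.3, 49.9 and 43.5 TPM and 47.7, 43.4 and 55.0 TPM for the coding Esrra-201. A test of isoform use (limma diffSplice, Simes p) could be run on 6 of the 10 genes, and its BH-adjusted p ran from 0.580 for Sirt3 to 0.904 for Nrf1. It called 2.64% of 4849 genes with at least 2 tested isoforms and none of these 6, of which 0 were under an unadjusted p of 0.05 (15.7% of all genes). This test made too many false calls on simulated data, so nothing rests on these shares.

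The other isoforms at a mean of at least 1 TPM in 1 group had overlapping groups. For Esrra these were the non-coding Esrra-204 at 4.78, 4.92 and 3.05 TPM in homozygous and 3.17, 2.94 and 2.29 TPM in WT libraries, and the short coding Esrra-205 at 7.42, 1.29 and 2.52 TPM against 2.20, 3.35 and 0.806 TPM. Esrrb-204, from the first of its start sites, was at 0.512, 2.57 and 1.03 TPM against 1.13, 0.648 and 0.450 TPM, and so held the peak of Esrrb in homozygous replicate 2. Esrrg-202 was below 0.001 TPM in homozygous replicate 3 and WT replicates 1 and 3, and was at 1.26, 2.65 and 1.68 TPM in the other 3 libraries. The non-coding Esrrg-205 was at 0.801, 1.62 and 1.58 TPM against 1.07, 1.14 and 0.525 TPM. Sirt3-201, which has the same coding length as Sirt3-202, was at 0.797, 1.98 and 2.40 TPM against 2.79, 2.07 and 1.36 TPM, and Sirt3-203 at 2.17, 0.869 and 1.41 TPM against 0.708, 2.16 and 1.55 TPM. The partial Tfam-205 (472 nt) was at 0.279, 2.97 and 6.84 TPM against less than 0.001, 6.83 and 5.62 TPM. For each of these forms the range among the 3 homozygous mice was wider than the difference between the group means.

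The 10 differences depended on how the libraries were scaled. Quantile normalization moved the median of all genes from 0.26 to -0.0070, and 6 of the 10 genes then had a positive log2 fold change. Ppargc1a, Ppargc1b, Esrra and Sirt3 were the 4 that changed sign, to between -0.15 and -0.092. No gene of the 10 then had groups apart, where 8.05% of all genes had the homozygous libraries above. Over all genes at an unadjusted p under 0.05, the share that was higher in homozygous muscle was 97.7% as deposited and 51.1% after quantile normalization. The 6 positive values were 0.49 for Gabpa, 0.48 for Esrrg, 0.26 for Esrrb, 0.19 for Nrf1, 0.17 for Perm1 and 0.15 for Tfam, and none of the 10 was under an unadjusted p of 0.05.

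**Figure D4:**
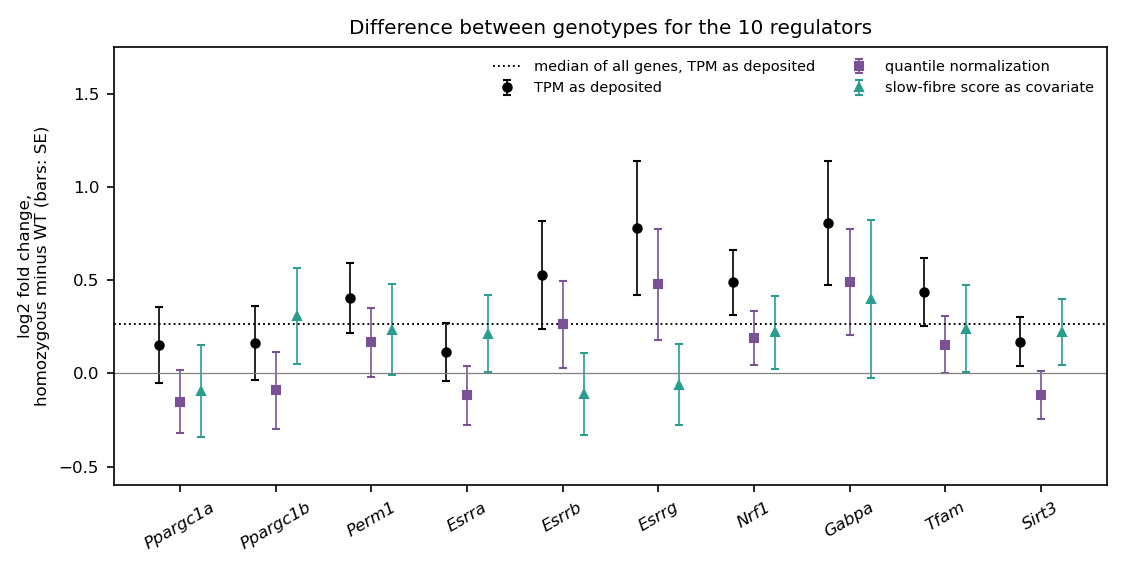
Log2 fold change, homozygous minus WT, of the 10 regulators (points) with its standard error (bars), for TPM as deposited (black circles), after quantile normalization (purple squares) and with a slow-fibre score as covariate (green triangles); the dotted line is the median of all tested genes as deposited, 0.26. Gabpa (0.81) and Esrrg (0.78) are the highest for TPM as deposited on this scale, 4 genes cross 0 after quantile normalization, and Ppargc1a, Esrrb and Esrrg cross 0 with the slow-fibre covariate.

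WT replicate 3 was the lowest library in 7 of the 10 genes and in 55.8% of all genes tested. Without it the median log2 fold change of the 10 was 0.27, against 0.20 for all genes, and only Nrf1 was under an unadjusted p of 0.05. The 4 genes with groups apart kept them apart without that library, with log2 fold changes of 0.37 for Esrrg, 0.39 for Nrf1, 0.42 for Gabpa and 0.25 for Tfam. Its mitochondrial transcripts made up 14.3% of TPM, and the highest share was 33.9% in WT replicate 2. When mitochondrial transcripts were left out and the rest rescaled, Nrf1 was the only one of the 10 with groups apart, where 19.8% of all genes had the homozygous libraries above. Of the fast myosins among the markers, Myh4 (type IIb) was the most abundant. It was at 6742, 4176 and 4988 TPM in homozygous and 6558, 5699 and 14390 TPM in WT libraries. Its groups overlapped, and WT replicate 3 was highest. Myh1 (type IIx) was at 1183, 1253 and 942 TPM in homozygous and 464, 315 and 239 TPM in WT libraries. Myh2 (type IIa) was at 593, 728 and 478 TPM against 361, 272 and 122 TPM. Myh1 and Myh2 were apart between the groups and lowest in WT replicate 3, whose summed fast-fibre markers were the highest. Schwann cell markers were also apart between the groups: the 6 genes summed to 29.1 to 106 TPM in homozygous and 16.2 to 25.3 TPM in WT libraries, with none at 0 in all libraries. The 5 endothelial markers overlapped, at 34.0 to 40.2 TPM and 27.3 to 39.1 TPM. The part of these differences in the regulators' values was not tested.

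The wider pathway was read from 4 lists chosen, like the 10 genes, with earlier results of these data known. Partners and upstream regulators of PGC-1 and ERR (31 genes, 30 tested) had 0 genes past the test (limma, BH adjustment), 10 higher (33.3%, against 23.7% of all genes) and 0 lower at an unadjusted p under 0.05, and a median log2 fold change of 0.37. The median was 0.24 without WT replicate 3. Groups were apart in 13, or 43.3%, where 34.7% of all genes had the homozygous libraries above. Among those with the smallest p were Camk2b, a calcium-dependent kinase subunit, and Crtc2, a CREB coactivator. Camk2b was at 64.9, 71.7 and 69.6 TPM in homozygous and 50.4, 39.3 and 34.9 TPM in WT libraries (log2 fold change 0.73, SE 0.16). Crtc2 was at 12.6, 13.0 and 12.2 TPM against 8.72, 8.47 and 8.82 TPM (0.49, SE 0.12). Both had groups apart and a BH-adjusted p of 0.168 in limma.

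Partners of the nuclear respiratory factors and genes that copy and transcribe mitochondrial DNA (24 genes, 22 tested) had 0 past the test, 4 higher (18.2%, against 23.7% of all genes) and 0 lower at an unadjusted p under 0.05, and a median of 0.20, at -0.064 relative to all genes. Groups were apart in 7, or 31.8%, against the same 34.7%. Gabpb1, a partner subunit that GABPA needs to activate transcription, had a log2 fold change of 0.077 (SE 0.16), beside 0.81 for Gabpa. Gabpb2, in the same list, had 0.30 (SE 0.19). Lig3, the mitochondrial DNA ligase, had 0.58 (SE 0.17), Nfe2l2, the antioxidant factor that is also abbreviated NRF2 and is a different protein from GABP, had 0.59 (SE 0.18), and Lrpprc, which stabilises mitochondrial mRNA, had 0.49 (SE 0.17). Polrmt, the mitochondrial RNA polymerase that works with TFAM, had -0.11 (SE 0.25).

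Known target genes of PGC-1 and ERR (28 genes, all tested) had 0 past the test, 5 higher (17.9%, against 23.7% of all genes) and 0 lower at an unadjusted p under 0.05, and a median of 0.23. Groups were apart in 3 of them, or 10.7%, where 34.7% of all genes had the homozygous libraries above. Mfn2, which fuses mitochondria, was at 141, 144 and 133 TPM in homozygous and 104, 114 and 86.6 TPM in WT libraries (log2 fold change 0.46, SE 0.14). Mb, the oxygen store myoglobin, had a log2 fold change of 0.99 (SE 0.38) with overlapping groups. For Mb it was 0.57 without WT replicate 3 and 0.20 with the slow-fibre covariate. Acadvl, of long-chain fatty acid oxidation, had 0.53 (SE 0.19) with overlapping groups. Cs, the citrate synthase used as a measure of mitochondrial content, was at 268, 225 and 215 TPM in homozygous and 215, 212 and 224 TPM in WT libraries (0.11, SE 0.14).

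Sirtuins, the NAD supply and SIRT3 substrates (16 genes, all tested) had 0 past the test, 6 higher (37.5%, against 23.7% of all genes) and 0 lower at an unadjusted p under 0.05, and a median of 0.35. Groups were apart in 6, again 37.5%, against 34.7% of all genes. Acss2, an acetyl-CoA synthetase of the cytosol, was at 39.3, 43.3 and 33.3 TPM in homozygous and 27.5, 21.7 and 14.5 TPM in WT libraries (log2 fold change 0.87, SE 0.23). Glud1, the glutamate dehydrogenase that SIRT3 deacetylates, had 0.57 (SE 0.15). Sirt1, the nuclear sirtuin that deacetylates PGC-1alpha and a member of the first list too, was at 3.43, 4.72 and 4.65 TPM against 2.60, 3.20 and 1.70 TPM (0.61, SE 0.21).

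**Figure D5:**
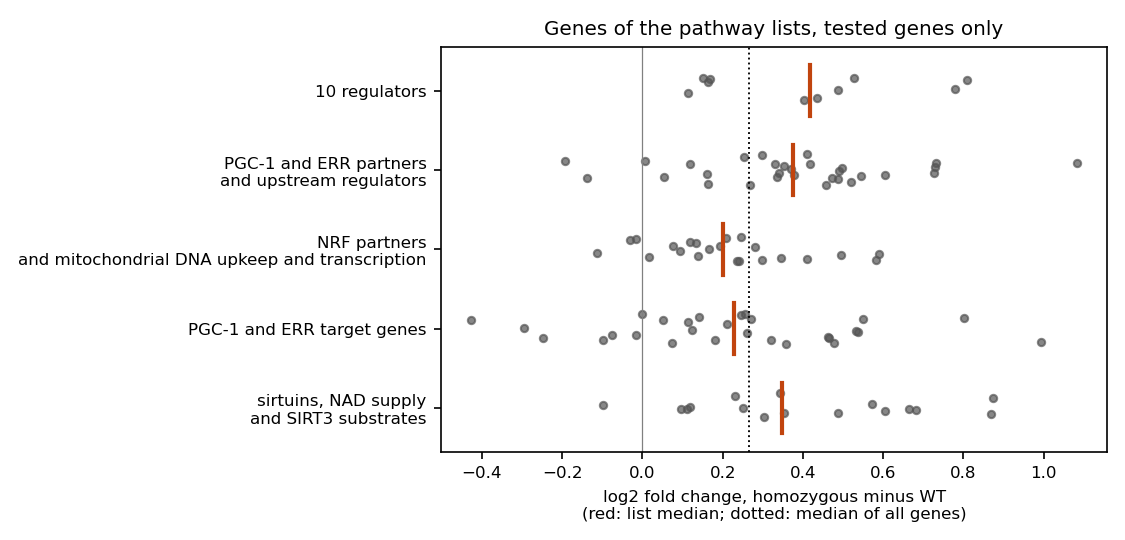
Log2 fold change, homozygous minus WT, of each tested gene (grey points, spread vertically for sight only) in the 10 regulators and the 4 pathway lists; red bars are list medians and the dotted line is the median of all tested genes, 0.26. Medians run from 0.20 for mitochondrial DNA upkeep to 0.42 for the 10 regulators, and each list straddles the all-gene median.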

How the data were processed

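Poly-A selected, stranded libraries were made from quadriceps muscle of 3 homozygous and 3 WT mice, per the labels' protocols. The authors deposited a table of TPM with a row for each Ensembl transcript and a column for each library, as the file headers and column sums show. Each library sums to 1000000, and 0 columns were left unmatched. The submitters' processing notes name FastQC, Trimmomatic, HISAT2, kallisto and mm10, with no role or version. They give no strand setting.

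The 10 genes, the pathway lists and the markers were chosen with earlier results of these data known. TPM was summed per gene, and genes or isoforms that reached 1 TPM in 3 or more libraries were tested on log2(TPM + 1) with limma 3.58.1 in R 4.3.3 (mean-variance trend, robust, genotype only). Benjamini-Hochberg adjustment ran over all 11099 genes or 21165 isoforms, with a threshold of 0.05. Isoform use was tested with limma diffSplice. On simulated data it made too many false calls, so nothing rests on its total. Because the table holds TPM, no count test was used. Fragments per library were estimated from low values of single-isoform genes, of which 73.2% to 77.7% fell within 0.03 of a whole number. They are used for precision only.

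Named isoforms are those with a mean of at least 1 TPM in 1 group, and named pathway genes are the 3 with the smallest p in each list. A gene that this rule selects is not reported here. Other genes, such as Gabpb1, Polrmt and Cs, were named after their values were seen. Positions are from GENCODE M21 on GRCm38, where 64 of the 65 rows matched with their version. Promoter windows are from RefSeq (GRCm38.p6), where 9 of the 10 genes matched. The alternatives were quantile normalization, median centring, no filter, a pseudocount of 0.1, leaving out each library, array weights, a replicate block, leaving out mitochondrial transcripts and a slow-fibre covariate. Protein-coding isoforms only was an alternative chosen after seeing the data.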

Additional observations from a re-analysis of the deposited data

How the results depend on the processing

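None of the 10 genes passed the limma test with Benjamini-Hochberg adjustment under any of 15 alternatives, nor did any of their isoforms, or their isoform use, under those run for isoforms. Perm1, Nrf1, Gabpa and Tfam had a log2 fold change above 0 under all 15. The genes under an unadjusted p of 0.05, 3 as deposited, numbered 0 under quantile normalization, median centring, without mitochondrial transcripts and with the slow-fibre covariate, 1 with no filter and 1 with protein-coding isoforms only (Nrf1 in both), and 0 to 6 when each library was left out. Without WT replicate 1 they were 6 and without homozygous replicate 2 there were 0. Genes with the homozygous libraries all above WT, 4 as deposited, numbered 0 under quantile normalization and median centring, and 1 (Nrf1) without mitochondrial transcripts and 1 (Nrf1) with protein-coding isoforms only.

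Signs changed as follows, on the log2 scale. Quantile normalization gave -0.15 for Ppargc1a, -0.092 for Ppargc1b, -0.12 for Esrra, -0.12 for Sirt3, -0.15 for Esrra-201, -0.17 for Sirt3-202, -0.024 for Esrrb-204, -0.23 for Ppargc1a-203, -0.27 for Sirt3-203 and -0.057 for Esrrg-205. Median centring gave -0.15 for Ppargc1a, -0.14 for Ppargc1b, -0.19 for Esrra, -0.13 for Sirt3, -0.23 for Esrra-201, -0.19 for Sirt3-202, -0.24 for Ppargc1a-203 and -0.25 for Sirt3-203. With the slow-fibre covariate the values were -0.094 for Ppargc1a, -0.11 for Esrrb, -0.062 for Esrrg, -0.016 for Gabpa-201, -0.81 for Tfam-202, -0.14 for Esrrg-202, -0.26 for Esrrb-204, -0.24 for Ppargc1a-203, 0.41 for Tfam-205 and -0.062 for Esrrg-205. Array weights gave 0.74 for Tfam-205, a pseudocount of 0.1 gave 0.34 for Tfam-205, and protein-coding isoforms only gave -0.087 for Ppargc1b. Leaving out each library gave ranges that crossed 0, from -0.015 to 0.23 for Esrra, -0.055 to 0.14 for Esrra-201, -0.38 to 0.076 for Sirt3-201, -0.33 to 0.55 for Esrrg-201, -0.12 to 0.086 for Tfam-201, -0.27 to 1.55 for Tfam-202, -0.10 to 0.18 for Sirt3-202, -0.096 to 0.20 for Ppargc1a-203, -0.23 to 0.22 for Sirt3-203, -1.08 to 0.58 for Tfam-205 and -0.044 to 0.90 for Esrra-205. Tfam-202 turned negative without WT replicate 3. The cause of these changes was not tested.

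Over all genes, the test called 0 as deposited, 810 with array weights (which gave WT replicate 3 a weight of 0.199) and 0 to 2 when each library was left out. Camk2b, Crtc2, Lig3, Mfn2 and Glud1 of the pathway lists were among those 810 (limma, BH-adjusted p from 0.0416 to 0.0474). They passed under no other alternative. Genes under an unadjusted p of 0.05, 2697 as deposited, numbered 986 under quantile normalization, 917 under median centring, 1160 without mitochondrial transcripts, 588 with the slow-fibre covariate and 1103 to 2810 when each library was left out. Isoforms called, 9 as deposited, numbered 3 under quantile normalization, 5 under median centring, 0 without the filter, 4 with a pseudocount of 0.1, 14 with array weights, 0 with the slow-fibre covariate and 0 to 36 when each library was left out. Genes with different isoform use, 128 as deposited, numbered 517 without the filter, 16 when the slow-fibre score was a covariate and 29 to 174 when each library was left out.

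Replicate numbers are shared by both groups, but same-numbered libraries did not deviate together (correlations -0.071, 0.061 and -0.013). Differently numbered libraries had correlations from -0.139 to 0.131. The samples were therefore taken as unpaired, although 3 libraries a group are too few to exclude a pairing. With the number as a replicate block, 0 isoforms and 70 genes by isoform use were called, and 4 of the 10 genes (Perm1, Esrrg, Nrf1 and Gabpa) were under an unadjusted p of 0.05, with 0 past the adjusted threshold. Depth limits Ppargc1b and Esrrb most, with as few as 36.9 and 29.9 estimated fragments in a library, and the division of fragments among isoforms adds error that TPM does not show. The estimate for Ppargc1b leaves out its 366-nt isoform.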
